A study of Homo sapiens with 2 samples.

Results

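Aminoacyl-tRNA synthetases are the enzymes that join each amino acid to its tRNA before translation. Genes were taken as members when the deposited gene table marked them as protein-coding and their description held the words "tRNA synthetase". This gave 41 of 46732 listed genes, of 19766 protein-coding ones. The members comprised 21 genes of cytosolic synthetases or their subunits, 17 of mitochondrial synthetases, whose symbols end in ARS2, and 3 of related proteins. The 3 were AIMP1 and AIMP2, scaffolds of the multisynthetase complex, and AARSD1, a protein with an editing domain. All 41 had at least 100 counts in 1 library, and the lowest counts were 336 in control (FARS2) and 526 in CIC knockdown (AARSD1). Another 8 rows held the same words but were not protein-coding, and 6 of these had 0 counts in both libraries. Symbols are given as in the deposited tables, so that IARS, for example, is the gene now called IARS1.

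RNA came from secondary mammospheres of T47D, an established human line of luminal, estrogen receptor-positive breast cancer. One group is control and the other is CIC knockdown, and in both the floating clusters of a first 7 days were passaged for another 7 days. CIC, or capicua, represses transcription until ERK signalling relieves it. How it was knocked down is not stated in the labels used here. Each group is 1 library, so no test was possible and every comparison describes these 2 libraries. In bulk RNA, fewer cells of a type and less RNA per cell cannot be told apart.

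Each amino acid is charged to its tRNA by its own synthetase, and the enzymes fall into class I and class II by the fold of the catalytic domain. Cytosol and mitochondria translate separately and mostly use separate synthetase genes, all of them nuclear. GARS and KARS each encode both forms, and EPRS joins the glutamyl and prolyl enzymes in 1 protein. Part of the cytosolic enzymes sit in the multisynthetase complex with AIMP1, AIMP2 and EEF1E1. Shortage of charged tRNA activates the kinase GCN2 and the transcription factor ATF4, which induces genes of amino acid synthesis and uptake and a subset of cytosolic synthetase genes.

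Control had 47099221 counts in all, and CIC knockdown was deeper, with 68420805. The level of CIC mRNA was about equal in them (607 and 872 counts, ratio 0.98 with a 95% counting interval of 0.882 to 1.09), so CIC knockdown here names the library labelled as such. ETV5 and ETV4, known CIC targets, had ratios of 4.97 and 4.69. All 9 luminal markers had counts of at least 1141 in control, and 1 of them, PGR, was called higher, at a ratio of 2.07 (1.94 to 2.22). Of 14 markers of leukocytes, fibroblasts, endothelium and basal cells, PTPRC, CD3E, COL1A2, PDGFRB, KRT5 and KRT14 had 0 counts in both libraries. COL1A1, a fibroblast collagen, was called higher at low counts, 58 in control and 168 in CIC knockdown, at a ratio of 1.98 (1.46 to 2.71). Other markers were detected with too few counts for a call. They were ACTA2 (65 in control and 84 in CIC knockdown) and TP63 (38 and 8) of basal cells and CD14 (0 and 8) of leukocytes. Those of endothelium were VWF (28 and 40), PECAM1 (2 and 16) and CDH5 (0 and 7). The interval of TP63 lay below 1, at a ratio of 0.144 (0.0579 to 0.312), and those of PECAM1 and CD14 lay above 1. The part of these markers in the synthetase values was not tested.

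A ratio here is the TMM-scaled count in the library labelled CIC knockdown over that in control, with an exact 95% interval for counting error only. A gene was called higher or lower when the ratio reached 1.2-fold and the interval lay on the same side of 1. By this rule 8 of 41 members were lower and 5 higher, against 11.0% lower and 15.9% higher among 12106 protein-coding genes with at least 100 counts. The lower members were YARS, IARS, SARS, CARS, GARS and LARS of the cytosol and EARS2 and WARS2 of mitochondria. The higher ones included DARS and FARSA of the cytosol and LARS2 and FARS2 of mitochondria. None of the 41 members reached 2-fold, which 0.867% of the protein-coding genes reached in the lower and 1.15% in the higher direction. By interval alone, with no fold, 16 members lay below 1, 12 above and 13 overlapped it, against 27.3% below and 36.1% above among all protein-coding genes. With halved counts, as if mates had been counted separately, QARS and VARS2 no longer lay below 1. Nor did KARS, RARS, FARSB and TARS2 then lie above it. The median log2 ratio was -0.11 over the 21 cytosolic members, 0.02 over the 17 mitochondrial ones and 0.03 over the 12106 genes.

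**Figure D1:**
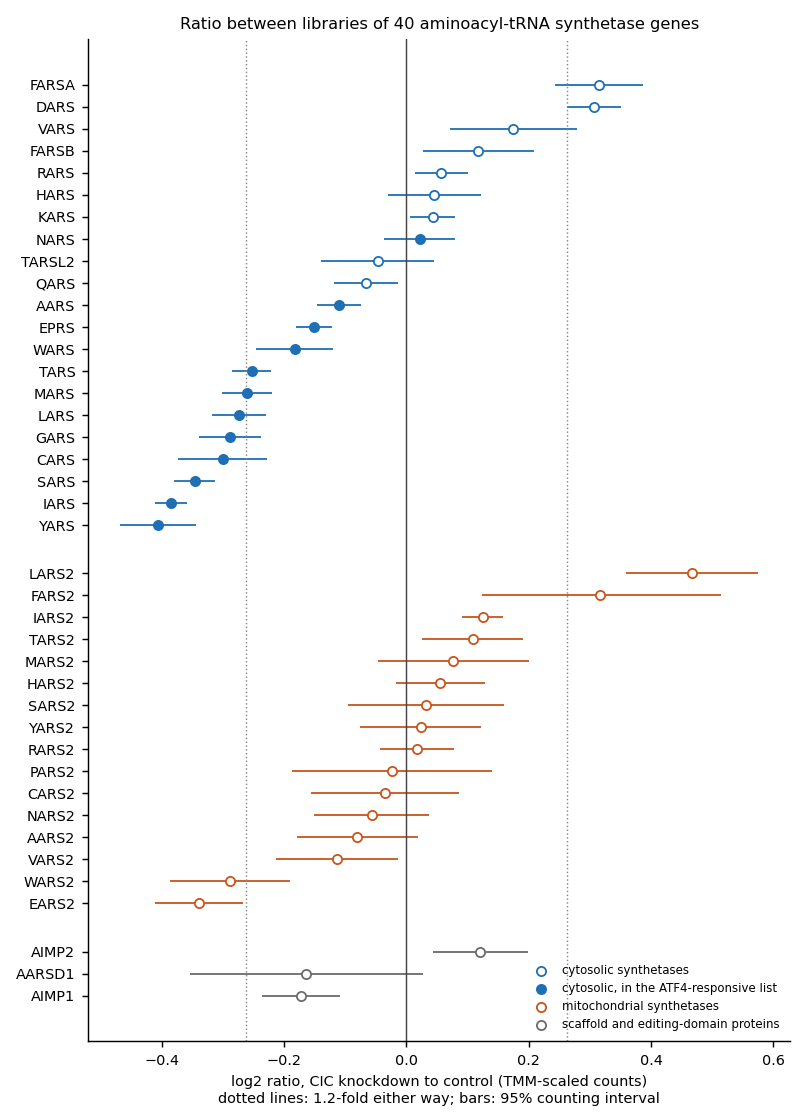
Log2 ratio of CIC knockdown to control for 40 of the 41 genes (x axis), in rows grouped by compartment, with 95% counting intervals as bars and dotted lines at 1.2-fold. Of the 12 filled points, the cytosolic genes of the ATF4-responsive list, 11 have intervals below 1, and the other one, NARS, overlaps it.

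YARS, the tyrosyl enzyme (gene 8565, GRCh38 chr1:32775238-32818032), had the lowest ratio of the 41 members. It had 3962 counts in control and 4384 in the deeper CIC knockdown library, a ratio of 0.755 (0.723 to 0.788) and a log2 ratio of -0.41. Per length, its level was 29.8 TPM in control and 23.1 TPM in CIC knockdown. IARS, the isoleucyl enzyme of the multisynthetase complex (gene 3376, chr9:92210207-92293756), had the most counts of all members, 22186 and 24906. Its ratio was 0.766 (0.752 to 0.78), and its level was 104 TPM in control and 81.2 TPM in CIC knockdown. SARS, the seryl enzyme (gene 6301, chr1:109213893-109238182), was the most abundant member per length, at 150 TPM in control and 120 TPM in CIC knockdown. It had 13674 and 15769 counts, which gave a ratio of 0.787 (0.769 to 0.805). These 3 genes were called lower with counts and with the authors' TPM alike.

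The other cytosolic genes called lower were nearer to the 1.2-fold line. CARS, the cysteinyl enzyme (gene 833, chr11:3000922-3057451), had 2849 and 3392 counts, which gave a ratio of 0.812 (0.772 to 0.854). GARS, the glycyl enzyme of both compartments (gene 2617, chr7:30594735-30634033), had 5873 and 7049 counts, which gave a ratio of 0.819 (0.791 to 0.848). LARS, the leucyl enzyme and a proposed sensor of leucine for mTORC1 (gene 51520, chr5:146113026-146182787), lay just inside, at 0.827 (0.802 to 0.853) with 7461 and 9050 counts. It was no longer called with the authors' TPM or FPKM, with unscaled totals or with the assembled transcripts added. CARS and GARS were not called with TPM either.

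MARS and TARS lay just outside the line. MARS, the methionyl enzyme, had 8973 and 10980 counts, which gave a ratio of 0.835 (0.812 to 0.858). The annotated span of MARS shares 68 bases with DDIT3, which encodes the stress factor CHOP and stood at a log2 ratio of -0.65 (1322 and 1233 counts). The part of the shared bases in the MARS value was not tested. Most MARS counts fell on non-coding forms of the gene, among them XR_001748704 with 5336 and 6664 counts. TARS, the threonyl enzyme and the second most abundant member in control, had 14375 and 17685 counts, with a ratio of 0.839 (0.821 to 0.858) and levels of 108 and 95.2 TPM. YARS shares 1266 bases with S100PBP (1164 and 1811 counts, log2 ratio 0.09), and whether the counting used strand is not stated. Smaller differences, with ratios and intervals still below 1, were found for WARS at 0.881, EPRS at 0.901, AARS at 0.926 and QARS at 0.955. TARSL2, a threonyl enzyme encoded by a related gene, NARS and HARS overlapped 1, with ratios from 0.968 to 1.03.

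At the other end, DARS and FARSA were higher by almost the same ratio. DARS, the aspartyl enzyme of the multisynthetase complex (gene 1615, chr2:135905881-135985684), had 6336 and 11488 counts, which gave a ratio of 1.24 (1.2 to 1.28). Its level was 44.1 TPM in control and 55.9 TPM in CIC knockdown. FARSA, the catalytic alpha subunit of the phenylalanyl enzyme (gene 2193, chr19:12922479-12933711), had 2374 and 4329 counts, which gave a ratio of 1.24 (1.18 to 1.31). FARSB, the beta subunit with which FARSA forms the active tetramer, had 1594 and 2536 counts, which gave a ratio of 1.09 (1.02 to 1.16). Per length, FARSA stood at 28.3 TPM and FARSB at 8.04 TPM in control, a ratio of 3.52, against 3.74 in CIC knockdown. VARS, the valyl enzyme and the least abundant cytosolic member at 7.44 and 8.67 TPM, had a ratio of 1.13 (1.05 to 1.21). KARS and RARS, both of the complex, stood at 1.03 (1.00 to 1.06) and 1.04 (1.01 to 1.07).

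Among mitochondrial synthetases, LARS2, the leucyl enzyme (gene 23395, chr3:45388564-45549407), had the highest ratio of all 41 members. It had 1034 and 2095 counts, with a ratio of 1.38 (1.28 to 1.49), and levels of 4.70 and 6.69 TPM. FARS2, the phenylalanyl enzyme, which works as a monomer (gene 10667, chr6:5261001-5771592), had 336 and 614 counts, which gave a ratio of 1.25 (1.09 to 1.43). Its interval was the widest of the called members, since its counts were the fewest.

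EARS2 and WARS2 were the lower mitochondrial members. EARS2, the glutamyl enzyme (gene 124454, chr16:23522013-23557375), had 2927 and 3391 counts, with a ratio of 0.79 (0.752 to 0.83) and levels of 16.8 and 12.6 TPM. WARS2, the tryptophanyl enzyme (gene 10352, chr1:119031216-119140788), had 1558 and 1870 counts, with a ratio of 0.819 (0.765 to 0.876) and levels of 11.8 and 9.95 TPM. WARS2 was not called with TPM. The other 12 mitochondrial members had ratios from 0.924 (VARS2) to 1.09 (IARS2), and 9 of the 17 intervals overlapped 1. IARS2 was the most abundant of the compartment in both libraries, with 11618 and 18568 counts and 71.1 and 79.4 TPM, followed by RARS2 at 36.6 and 34.8 TPM.

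Levels differed far more between members than between libraries. Cytosolic members ranged from 7.44 TPM (VARS) to 150 TPM (SARS) in control, with a median of 44.1 TPM. Mitochondrial members ranged from 4.13 TPM (FARS2) to 71.1 TPM (IARS2), with a median of 11.8 TPM. Summed over the group, the cytosolic members held 1116 TPM in control and 1038 TPM in CIC knockdown. The mitochondrial members held 280 TPM in control and 294 TPM in CIC knockdown, of which IARS2 alone held 71.1 and 79.4 TPM. Their median was 11.8 TPM in control and 10.6 TPM in CIC knockdown. Over protein-coding genes the median log2 ratio of TPM was 0.06, so a small rise in TPM was general. The order of abundance was much the same in both libraries: SARS, TARS, KARS and IARS were the top 4 cytosolic members in each, with KARS above TARS in CIC knockdown.

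**Figure D2:**
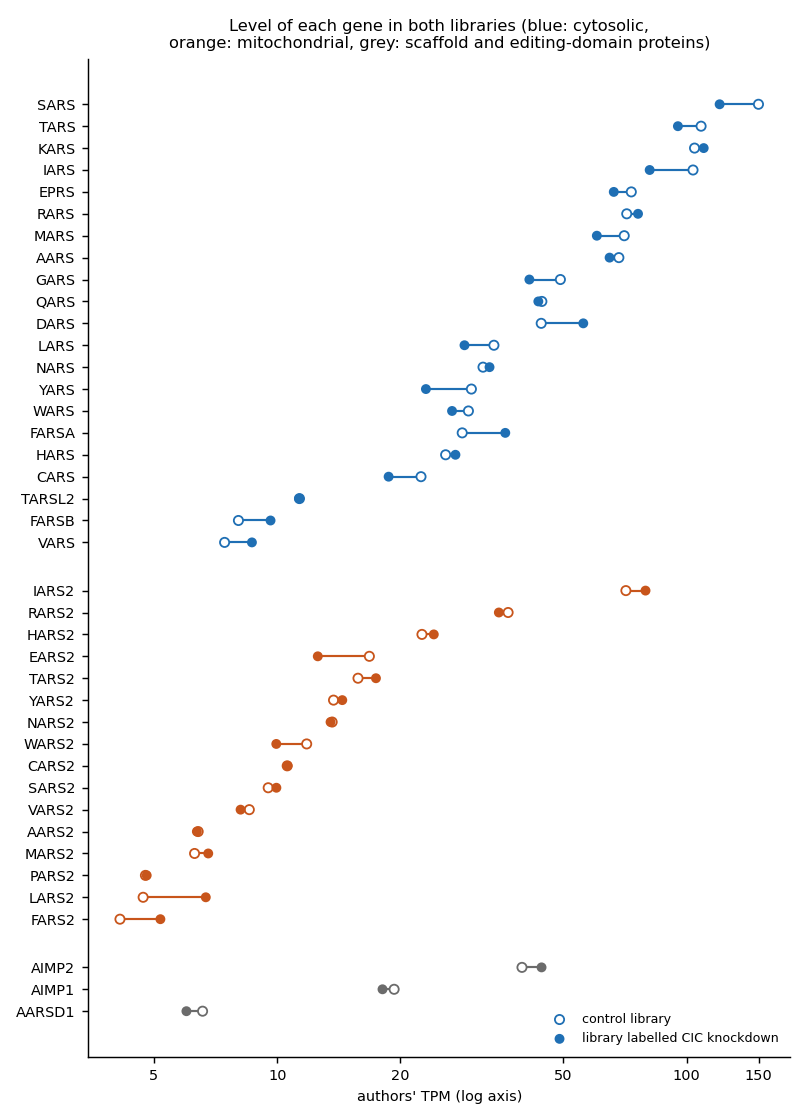
Level of 40 of the 41 genes in the authors' TPM (x axis, log scale), open circles for control and filled circles for CIC knockdown, in rows ordered by the control level within each compartment. Cytosolic genes reach 150 TPM and mitochondrial ones 79.4 TPM, and for most genes the distance between libraries is small beside the distance between genes.

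Pairs of cytosolic and mitochondrial genes for the same amino acid can be set side by side for 17 amino acids, in 18 pairs since FARS2 is paired with each subunit of the cytosolic enzyme. The mitochondrial gene had the higher ratio in 13 pairs and the lower in 5, with a median difference in log2 ratio of 0.08. Counting intervals were apart with the mitochondrial gene above in 7 pairs and below in 2, and they overlapped in 9. The widest gap was that of leucine, with LARS at a log2 ratio of -0.27 and LARS2 at 0.47. Isoleucine followed (-0.39 for IARS and 0.12 for IARS2), then tyrosine (-0.41 for YARS and 0.02 for YARS2) and serine (-0.35 for SARS and 0.03 for SARS2). Threonine, methionine and cysteine were the other 3 pairs of this kind. In all 7 the cytosolic gene belongs to the ATF4-responsive list described below, so this contrast of compartments overlaps with that of the list. Cytosolic genes outside the list had a median log2 ratio of 0.06, against 0.02 over the mitochondrial ones. In glutamate and valine the mitochondrial gene lay below: EPRS stood at -0.15 against -0.34 for EARS2, and VARS at 0.17 against -0.11 for VARS2. FARSA and FARS2 were both higher, at 0.31 and 0.32.

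Per length, the cytosolic gene was above its mitochondrial partner in 17 of 18 pairs in control, valine being the exception, and in 18 of 18 in CIC knockdown. The span was wide: SARS was 15.8 times SARS2 in control and 12.1 times in CIC knockdown, whereas IARS was 1.46 times IARS2 in control and 1.02 times in CIC knockdown. For leucine the quotient was 7.19 in control and 4.28 in CIC knockdown.

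**Figure D3:**
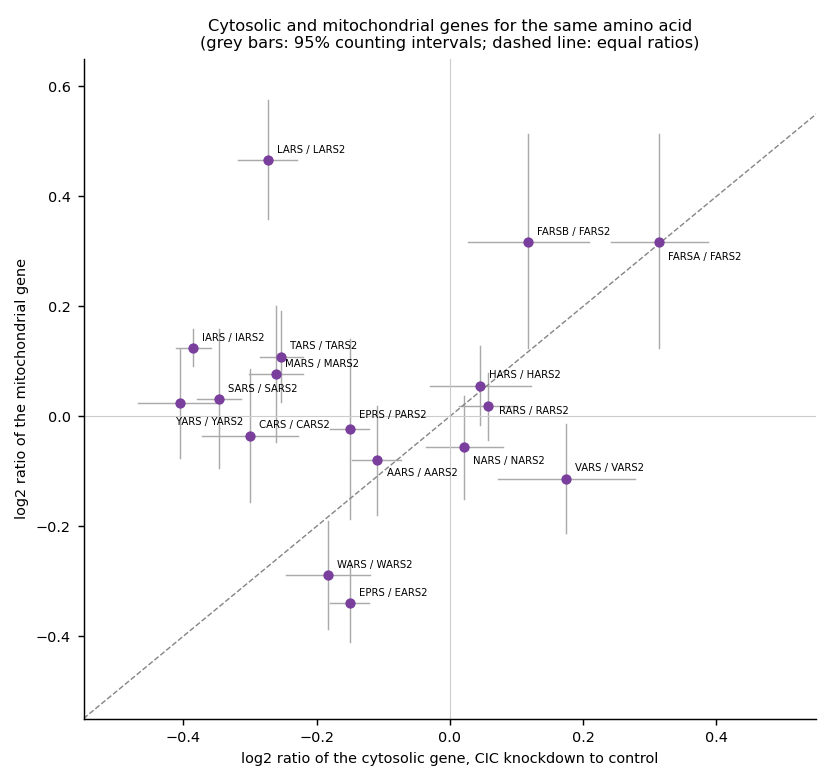
For 17 of the 18 pairs, log2 ratio of the cytosolic gene (x axis) against that of the mitochondrial gene for the same amino acid (y axis), CIC knockdown to control, with 95% counting intervals as grey bars and a dashed line at equal ratios. The leucine pair lies farthest above the line (-0.27 and 0.47), and the pair of FARSA and FARS2 lies close to it (0.31 and 0.32).

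A list of 12 cytosolic synthetase genes known to respond to ATF4 divided the compartment. Of these 12 genes, 6 were lower and 0 higher by the 1.2-fold rule, 11 had intervals below 1, and the median log2 ratio was -0.27. They were the 6 cytosolic genes named above as lower together with MARS, TARS, WARS, EPRS, AARS and NARS. Of the 9 cytosolic genes outside the list, 0 were lower and 2 higher, and 6 had intervals above 1, 1 below and 2 overlapping it, with a median of 0.06. Over all protein-coding genes with at least 100 counts, 11.0% were called lower and 15.9% higher. By interval alone, 27.3% of them lay below 1 and 36.1% above. The list was drawn up with earlier results of these data known, including lower levels of several ATF4 targets, so the division is no independent support for a direction. Summed, the 12 genes held 770 TPM in control and 660 TPM in CIC knockdown, and the 9 others held 345 and 378 TPM.

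A list of other ATF4 targets was examined beside the 12 genes. Of 23 measured genes, 13 were called lower, 2 were called higher, 8 were neither, and the median log2 ratio of the 23 was -0.31. Over all protein-coding genes, 11.0% were called lower and 15.9% higher. This list too was drawn up with earlier results of these data known, including lower levels of several ATF4 targets. Its counts and median are therefore no independent support for a direction. The genes with the largest change were ALDH1L2, a mitochondrial folate enzyme, at -1.60 (191 and 91 counts), and NUPR1, a stress-induced chromatin protein, at -1.28 (289 and 173 counts). ASNS, the asparagine synthetase, stood at -1.02 (2899 and 2090 counts), CHAC1, which degrades glutathione, at -1.01, and JDP2, a bZIP repressor, at -0.82. The 2 higher genes, named after their values were seen, were STC2 at 0.45 and ATF3 at 0.30. The calls of this list rest on counts, as the alternative units were run for the members alone. MTHFD2 was called lower at a ratio of 0.738, yet had 77.3 TPM in control and 85.3 TPM in CIC knockdown. ASNS was lower by both, with 26.7 and 13.4 TPM. ATF4 mRNA itself, also named after its value was seen, had 13893 and 17093 counts, which gave a ratio of 0.839 (0.82 to 0.858), just outside the 1.2-fold line. Its protein level is set largely by translation and was not measured here.

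Promoter sequences were searched for the composite element that ATF4 binds with C/EBP proteins, spelled TGATGNAAN and read on both strands. RefSeq promoter windows on GRCh38.p14, from 250 bases before to 50 after each annotated start, were matched by gene ID for 33 of the 41 members. Members with no entry included AARS2, DARS, LARS, TARSL2, VARS, VARS2 and YARS. The element was found in 7 of 10 matched genes of the ATF4-responsive list and in 1 of 23 other members, YARS2. Among all 35116 windows 3.61% held it, and among 9999 protein-coding genes with at least 100 counts here 2.66% did. The 8 stretches are shown since they are what the members with a match share, with the element in capitals as it reads on the gene's own strand, 5′ to 3′. In all but NARS and YARS2 the element itself is on the opposite strand, so that it appears as its reverse complement.
IARS, chr9:92293693-92293721, minus strand: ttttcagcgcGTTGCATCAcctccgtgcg
CARS, chr11:3057408-3057436, minus strand: cggggcggcgGTTGCATCAgattctagga
GARS, chr7:30594834-30594862, plus strand: ttacgcggcgATTTCATCAtgctccgagc
MARS, chr12:57488053-57488081, plus strand: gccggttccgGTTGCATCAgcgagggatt
TARS, chr5:33440956-33440984, plus strand: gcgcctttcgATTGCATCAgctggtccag
AARS, chr16:70289676-70289704, minus strand: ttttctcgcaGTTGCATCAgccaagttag
NARS, chr18:57621804-57621832, minus strand: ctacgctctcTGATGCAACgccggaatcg
YARS2, chr12:32756076-32756104, minus strand: tccacactgcTGATGGAAAaattaagttt

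The 6 matches in IARS, CARS, MARS, TARS, AARS and NARS held the shorter form TGATGCAA, which overlaps the first motif and was found in 0.67% of the promoters of the 9999 genes. Counted from the annotated start, with bases before it negative, the matches in IARS, CARS, GARS and MARS began at -14, -3, -34 and -5, and those in TARS and NARS at 2 and 15. The AARS and YARS2 matches lay farther away, at -188 and -197. Among the 16 cytosolic members with a promoter entry, the 7 with a match had a median log2 ratio of -0.26, from -0.39 (IARS) to 0.02 (NARS), and 3 of them were called lower. The 9 without one had a median of 0.04, from -0.35 (SARS) to 0.31 (FARSA), with 1 called lower and 1 higher. Among protein-coding genes with at least 100 counts, 11.0% were called lower and 15.9% higher. All 7 with a match belong to the ATF4-responsive list, so this division largely repeats that of the list and is no separate support. A match describes letters in a window, and binding was not measured.

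The 250 bases before the start of IARS (chr9:92293698-92293947, minus strand, GRCh38.p14) hold the ATF4 element near their end and an E-box, the CACGTG sequence that MYC and related factors bind. They are shown because IARS had the most counts of the members called lower, with both motifs in capitals.
IARS promoter: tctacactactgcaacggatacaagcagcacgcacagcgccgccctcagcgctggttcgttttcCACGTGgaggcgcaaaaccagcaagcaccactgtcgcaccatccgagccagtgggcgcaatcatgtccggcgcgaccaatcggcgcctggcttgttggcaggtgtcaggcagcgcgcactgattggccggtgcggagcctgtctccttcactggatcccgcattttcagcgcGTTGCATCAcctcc

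CACGTG, which reads the same on both strands, was found in 5 of the 33 matched members (IARS, AIMP2, CARS2, EARS2 and MARS2) and in 12.8% of the 9999 genes. The CIC octamers TGAATGAA and TGAATGGA were found in 0 of the 33 members, against 1.76% and 0.78% of the 9999 genes, so these letters were not in these windows. The palindromic NRF1 motif was found in 1 member, MARS2, and in 2.75% of the genes.

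The multisynthetase complex did not stand apart as a group. Its 8 cytosolic enzymes had a median log2 ratio of -0.11, with 1 higher and 2 lower. The 13 cytosolic members outside it also had a median of -0.11, with 1 higher and 4 lower. Over all protein-coding genes, 15.9% were called higher and 11.0% lower. The scaffolds went different ways by their intervals. AIMP1, which holds the arginyl and glutaminyl enzymes in the complex, had 3487 and 4535 counts, which gave a ratio of 0.887 (0.849 to 0.927). AIMP2, the central scaffold, had 2201 and 3509 counts, which gave a ratio of 1.09 (1.03 to 1.15), and EEF1E1, the remaining scaffold, had 1906 and 3333 counts, which gave a ratio of 1.19 (1.13 to 1.26). AARSD1 had 402 and 526 counts, which gave a ratio of 0.892 (0.782 to 1.02).

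By catalytic class, the 9 cytosolic class I genes had a median of -0.26, with 4 lower and 0 higher, and the 11 cytosolic class II genes had a median of 0.02, with 2 lower and 2 higher. The shares over all protein-coding genes were 11.0% lower and 15.9% higher. EPRS holds both classes and was left out of this division. In mitochondria the medians were 0.02 over 9 class I genes and 0.04 over 8 class II genes. Class and the ATF4-responsive list overlap in the cytosol, since YARS, IARS, CARS, LARS, MARS and WARS are in both, and the part of each was not tested.

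**Figure D4:**
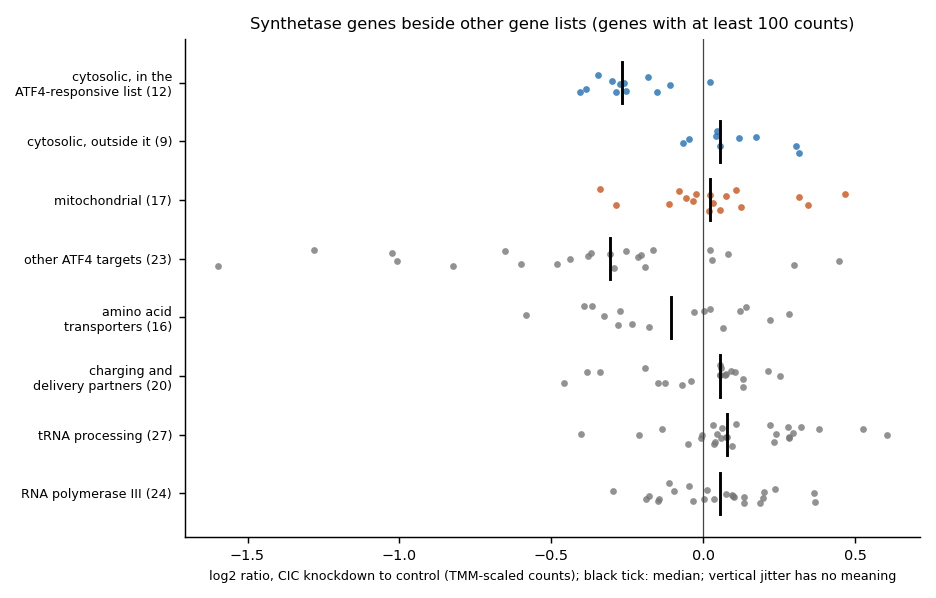
Log2 ratio of CIC knockdown to control (x axis) for genes with at least 100 counts in 8 groups, with the number of genes in parentheses and the median as a black tick. The 12 cytosolic genes of the ATF4-responsive list have a median of -0.27 and the 23 other ATF4 targets one of -0.31, while the medians of the 9 other cytosolic and 17 mitochondrial genes are 0.06 and 0.02. Both ATF4 lists were drawn up with earlier results of these data known.

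Transcript counts were examined for members that encode more than 1 form. KARS makes the cytosolic and the mitochondrial lysyl enzyme by alternative splicing of 1 gene. The transcript of the cytosolic form, NM_005548, had 5448 and 6792 counts, or 54.0% of the gene in control (exact 95% binomial interval 53.1 to 55) and 44.6% in CIC knockdown (43.8 to 45.4). The transcript of the mitochondrial form, NM_001130089, had 3438 and 4471 counts, or 34.1% (33.2 to 35) and 29.4% (28.6 to 30.1). The predicted transcript XM_017023217 had 1197 and 3966 counts, or 11.9% (11.2 to 12.5) and 26% (25.3 to 26.7). The intervals cover counting error only and leave out any error from the division of reads among transcripts. GARS makes both of its forms from alternative start codons, which counts do not tell apart, and its main transcript held 5150 and 6156 counts.

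WARS, the cytosolic tryptophanyl enzyme, is known for induction by interferon. Its 13 annotated transcripts begin at an upstream group of starts, between 100376272 and 100376327 on chromosome 14, or at a downstream group between 100375347 and 100375541. This grouping was chosen after the transcript values were seen. The upstream group had 1439 and 1317 counts, with a ratio of 0.624 (0.579 to 0.673), and the downstream group 2168 and 3342 counts, with a ratio of 1.05 (0.996 to 1.11). With the assembled transcripts added, the ratios came closer, to 0.718 (0.655 to 0.786) upstream and 0.921 (0.877 to 0.967) downstream. The whole gene had 3607 and 4659 counts, which gave a ratio of 0.881 (0.843 to 0.92).

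For some members the counts were divided very differently among annotated transcripts in the 2 libraries. The share of a gene's counts that moved between its transcripts was 91.0% for EARS2, 82.1% for LARS and 80.3% for TARS, and it exceeded 25% in 9 of the 41 members. CARS at 56.9% and WARS2 at 55.2% were also among these, so that 4 of the 8 members called lower (EARS2, LARS, CARS and WARS2) had most of their counts moved between transcripts. LARS transcript NM_020117 had 7154 counts in control and 1249 in CIC knockdown, while the 4 other annotated transcripts had between 68 and 89 counts in control and between 1672 and 2623 in CIC knockdown. TARS transcript NM_152295 had 13873 and 2861 counts, and the non-coding TARS transcripts NR_047676 and NR_047677 had 44 and 200 counts in control against 4623 and 5068. In EARS2, NM_001083614 had 2145 and 129 counts, against 18 and 1838 for the predicted XM_011545738. In the other 4 members called lower the share that moved was 2.51% for IARS, 0.637% for SARS, 2.89% for GARS and 6.99% for YARS. Of the members named as higher, the share was 17.1% for LARS2, 19.1% for FARS2 and 2.76% for DARS. The main LARS2 transcript, NM_015340, had a ratio of 1.14 (1.06 to 1.23), and NM_001368263 had 0 and 352 counts. The main FARS2 transcript, NM_006567, had a ratio of 1.05 (0.908 to 1.23), and that of DARS, NM_001349, 1.27 (1.23 to 1.31). FARSA, with 1 annotated transcript, had no such division. The effect of the division on the gene totals was not tested beyond the table with assembled transcripts.

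**Figure D5:**
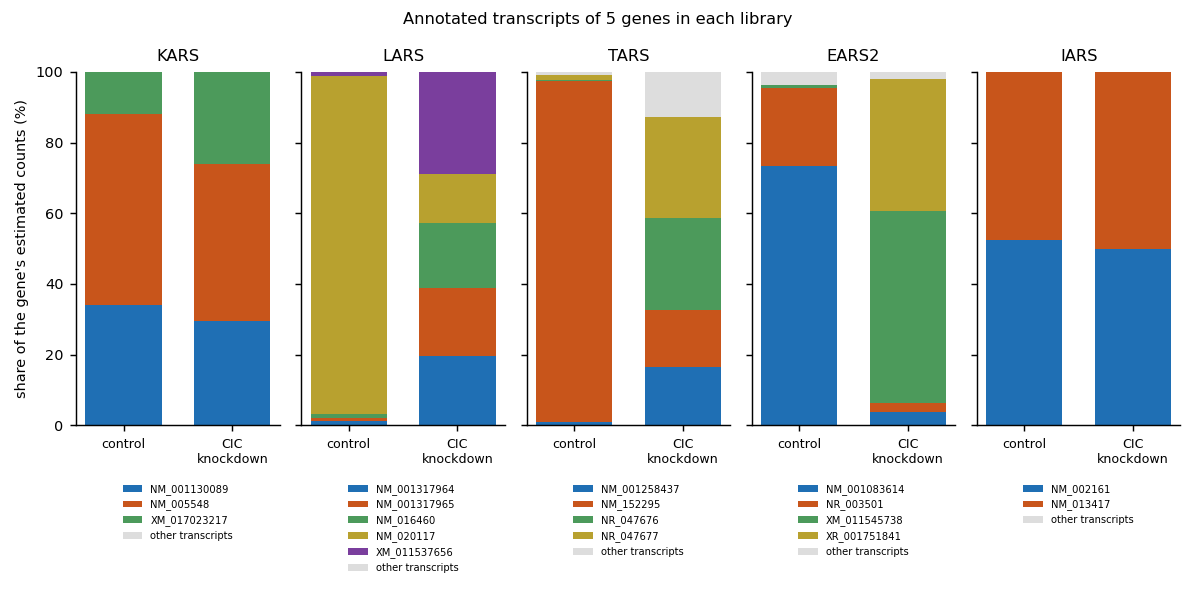
Share of each gene's estimated counts (y axis, percent) held by its annotated transcripts in each library, for KARS, LARS, TARS, EARS2 and IARS. Transcripts that never reach 10% are drawn together in grey. In LARS, TARS and EARS2 the leading transcript of control is not that of CIC knockdown, whereas the 2 IARS transcripts each hold about the same share in both.

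Assembled splice variants were listed for 8 members, AARS2, CARS, HARS2, LARS, SARS2, VARS, VARS2 and WARS. The LARS variant had 0 counts in control and 7865 in CIC knockdown, while the gene total in that table was 7461 and 9232. The HARS2 variant, with 18 exons and 5141 bases, had 4538 and 8590 counts, more than the 2583 and 3936 counts of the whole gene in the annotated table. HARS2 and HARS, the histidyl enzymes, lie head to head, and their annotated spans share 284 bases. With the variant added, the log2 ratio of HARS2 was -0.02 in place of 0.06.

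Around the synthetases, other steps of tRNA supply were examined from lists of their own. Among all 12106 protein-coding genes, 11.0% were called lower and 15.9% higher. Of 20 partners in charging and delivery, 3 were called lower, not far from that share, and 0 called higher, and the median was 0.06. The 3 were SEPSECS at -0.46 (1887 and 2014 counts), PSTK at -0.38 (253 and 284 counts) and EEFSEC at -0.34 (257 and 297 counts). SEPSECS and PSTK convert seryl-tRNA to selenocysteinyl-tRNA, and EEFSEC delivers it to the ribosome. SEPHS2, another selenocysteine gene of the list, was not called. It had 1674 and 2552 counts, a ratio of 1.04 (0.977 to 1.11). QRSL1, a subunit of the mitochondrial amidotransferase that makes glutaminyl-tRNA, stood at 0.21. Of 27 measured tRNA processing genes, 8 were called higher and 1 called lower, and the median was 0.08. They included the ribonuclease P subunits RPP25 at 0.60 (473 and 1056 counts), RPP21 at 0.53 and POP1 at 0.38, and TP53RK, a kinase of the KEOPS complex, at 0.32. OSGEP, the catalytic subunit of the same complex, was the lower one, at -0.40.

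Of 24 RNA polymerase III genes, 2 were higher (GTF3C6 at 0.37 and POLR3K at 0.37) and 1 lower (GTF3C4 at -0.30). Both counts were below the shares over all protein-coding genes, 15.9% higher and 11.0% lower. Of 16 measured amino acid transporters, 6 were called lower and 1 called higher, and the median was -0.10. SLC7A11, the cystine importer, stood at -0.58 (2290 and 2241 counts), SLC38A2, a neutral amino acid importer, at -0.39 (43870 and 49051 counts), and SLC7A6 at -0.37. SLC3A2, the heavy chain of several of these transporters, stood at -0.33, while the higher one, SLC6A14, stood at 0.28. Several of these transporter genes are also known ATF4 targets.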

How the data were processed

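Deposited tables of 2 RNA-seq libraries were used. The submitters' processing notes name Trimmomatic, HISAT2, StringTie, hg38 and GRCh38, without versions. The deposited read counts are estimated counts: 100% of transcripts with counts lay within 1 above a constant times FPKM times length, as a coverage-derived count rounded up does (tolerance 0.01 plus 1e-05 of the count). They were whole as deposited, so rounding changed nothing. FPKM and TPM values were made by the authors, per the file headers. Columns marked KD were matched to the CIC knockdown title and columns marked C to the other sample, and 0 columns lacked a sample. Whether a column pools the duplicates named in the design text is not stated.

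All 46732 genes entered the library totals. TMM factors (edgeR 4.0.16, R 4.3.3) were 0.995 for control and 1.00 for CIC knockdown. Log2 ratios used a prior count of 2, and intervals were exact Clopper-Pearson 95% intervals given the summed count, without the prior. Intervals cover counting error only, as PCR copies are counted without molecular identifiers, and they are too narrow if each mate counted separately. Calls needed 100 counts in 1 library and 1.2-fold. The calling rule was tested on counts simulated with counting error only, at ratios of 0.5, 0.667, 1, 1.5 and 2. The simulation could not test differences between cultures, the division of reads among transcripts or the smaller folds of the called members. The members and gene lists were chosen with earlier results of these data known. Genes outside the members were named by rule: CIC, ETV4, ETV5 and, per list, up to 5 genes with the largest absolute log2 ratio and at least 100 counts. DDIT3, S100PBP, ATF4, ATF3, STC2, MTHFD2, SEPHS2 and the markers below 100 counts in both libraries fall outside this rule and were named after their values were seen. Promoter sequences are from RefSeq, build GRCh38.p14. Alternatives were scaling (DESeq2 1.42.0 size factors, total counts, protein-coding totals), prior count, count minimum, unit, gene table and halved counts. Protein comparisons were planned and are not reported here. The values of 1 mitochondrial member and 1 leukocyte marker are not reported here by name; the member stays in the counts, sums and medians of its groups.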

Additional observations from a re-analysis of the deposited data

How the results depend on the processing

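No paired analysis was possible because each group has 1 sample. The counts of called cytosolic and mitochondrial members stayed within 1.5 times those reported (6 lower and 2 higher, 2 lower and 3 higher) under each other scaling, unit, prior count, count minimum and gene table tried, except the authors' TPM, which gave 3 lower cytosolic and 1 lower mitochondrial member. Chosen after seeing the data, a 1.1-fold rule gave 10 lower cytosolic members, and a 1.5-fold rule gave 0 in all 4 counts. The cytosolic median log2 ratio ranged from -0.13 to -0.08 and the mitochondrial one from 0.02 to 0.07 over 14 alternatives. LARS, of the called members the nearest to the 1.2-fold line, was not called with unscaled totals, TPM, FPKM or the assembled transcripts, nor FARS2 with a minimum of 1000 counts. No called member changed direction under the alternatives run. Depth limits the least counted members: the interval of FARS2 spans 1.09 to 1.43. Differences between cultures could not be measured.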
